A study of Mus musculus with 12 samples.

Results

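Serpina1a, Serpina1b, Serpina1c, Serpina1d and Serpina1e are the mouse paralogs of the human gene for alpha-1-antitrypsin, and Serpina3c, Serpina3k, Serpina3m and Serpina3n are mouse relatives of the human gene for alpha-1-antichymotrypsin. All lie in the Serpina gene cluster of mouse chromosome 12. These 9 genes, of 55421 in the table, were followed by symbol through 12 liver libraries, and all 9 were among the 15006 genes that had enough counts to be tested. They were chosen from their values in these same libraries, by the presence of H2-Ea-ps transcripts and by housing temperature, so their levels across either are a description.

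The livers came from WT mice that all carried E0771 tumours, grown from a mouse mammary carcinoma line placed in the mammary fat pad, and were taken on day 21. After 1 week of acclimatisation, mice were kept at 6 °C (libraries numbered 1 to 4), at 22 °C (5 to 8) or at 29 °C (9 to 12). Each temperature has 4 libraries, and no tumour-free group is among them. The labels give no age and name Balb/C and C57Bl6/J mice without tying a library to either, and they do not say that each library was a separate animal, so the p-values speak of the spread between libraries, which may be technical. H2-Ea-ps, a class II histocompatibility gene whose symbol marks it as a pseudogene, had 134 to 248 counts in libraries 1, 7, 8 and 9. It had 0 counts in the other 8. Libraries 1, 7, 8 and 9 stand apart from the labelled groups. They are called the libraries with H2-Ea-ps counts below, and the rest the libraries without. This division came from the data, is not a group of the study, and was not tested.

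Serpins are suicide inhibitors of proteases. A flexible loop near the end of the protein offers a bait sequence, the protease cuts it at a site called P1, and the cut loop springs into the body of the serpin and traps the enzyme. Hepatocytes secrete most of the alpha-1-antitrypsin in plasma, where it restrains neutrophil elastase in tissues such as the lung. Mice carry several copies of each of these genes where humans carry one functional copy, and the loop is known for differing among the copies. Serpina3n, whose product inhibits granzyme B and neutrophil proteases, is a well known acute phase gene of mouse liver.

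The copies differ more per base in the loop than over the whole coding sequence, although most of the differing bases lie outside it. The coding sequence around the loop, 22 codons or 66 bases, is shown for the 5 Serpina1 genes from GENCODE transcripts (GRCm38, minus strand), with bases that differ among them in capitals. The 15th codon of each window encodes the P1 position.
Serpina1a: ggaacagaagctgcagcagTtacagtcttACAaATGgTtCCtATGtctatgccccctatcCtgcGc
Serpina1b: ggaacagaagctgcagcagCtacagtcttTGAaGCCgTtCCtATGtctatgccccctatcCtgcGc
Serpina1c: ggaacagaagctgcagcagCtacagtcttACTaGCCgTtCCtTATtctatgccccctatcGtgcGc
Serpina1d: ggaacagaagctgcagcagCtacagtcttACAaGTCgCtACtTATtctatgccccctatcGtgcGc
Serpina1e: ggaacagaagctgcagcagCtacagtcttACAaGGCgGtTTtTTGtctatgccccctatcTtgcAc
Of the 66 bases, 15 varied among the Serpina1 genes. The P1 codon was atg in Serpina1a and Serpina1b, tat in Serpina1c and Serpina1d, and ttg in Serpina1e. Over the whole coding sequence the 10 Serpina1 pairs were 96.3% to 98.5% identical, against 84.8% to 93.9% within the window. The same window of the Serpina3 genes is shown with capitals for bases that differ among those 4. Serpina3c is on the minus strand and the others on the plus strand.
Serpina3c: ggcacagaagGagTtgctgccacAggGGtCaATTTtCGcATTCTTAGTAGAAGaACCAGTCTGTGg
Serpina3k: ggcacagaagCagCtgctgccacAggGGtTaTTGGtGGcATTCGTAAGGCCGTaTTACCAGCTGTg
Serpina3m: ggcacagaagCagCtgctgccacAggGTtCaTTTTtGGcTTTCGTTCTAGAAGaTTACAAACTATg
Serpina3n: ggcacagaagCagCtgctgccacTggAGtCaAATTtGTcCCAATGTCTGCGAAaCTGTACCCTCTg
Here 37 of the 66 bases varied. The P1 codon was ctt in Serpina3c, cgt in Serpina3k and Serpina3m, and atg in Serpina3n. The 6 Serpina3 pairs were 82.7% to 91.0% identical over the coding sequence and 57.6% to 75.8% within the window.

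This likeness bears on every level that follows. Of the 50-base stretches of each transcript, 80.9% in Serpina1a, 79.3% in Serpina1c, 50.9% in Serpina1d, 47.1% in Serpina1b and 37.9% in Serpina1e also occurred letter for letter in a transcript of another gene. The shares were 19.1% in Serpina3m, 14.0% in Serpina3k, 6.90% in Serpina3n and 4.25% in Serpina3c. The annotated span of Serpina1b (103728156 to 103830373) contains that of Serpina1d (103763594 to 103773592) on the same strand, and Serpina3k (104338486 to 104346144) and Serpina3m (104338486 to 104394257) share their start. Read length, the counting program and its treatment of reads with several matches were not given in any source used here, so the division of reads among the Serpina1 genes, and between Serpina3k and Serpina3m, is uncertain. Serpina3c and Serpina3n share the least sequence with other genes.

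Total counts ran from 7615585 to 19001126 per library, so that 3 counts correspond to 0.158 to 0.394 CPM (the count scaled to a common library total). The 9 genes together took 0.824% to 1.36% of all counts. Hepatocyte markers such as Alb were abundant in every library, with 11 of 12 listed genes found and a summed level of 114296 to 233080 CPM. Levels below are CPM on library sizes scaled by trimmed means (TMM). Library 11 (29 °C) also held transcripts of intestine: 6 of 12 listed intestinal markers (Akp3, Sis, Reg3g, Reg3b, Krt20 and Mep1a) had 4 to 5516 counts there and 0 in the other 11 libraries, and its part in the results was not tested beyond leaving it out.

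Levels per kilobase used the merged length of all annotated exons of a gene. That length was 2415 bases for Serpina1b and 1394 for Serpina1d, although each coding sequence has 1239 bases. A shorter length would raise Serpina1b, so its place below, also against Serpina3k in the libraries without H2-Ea-ps counts, depends on this choice. On this scale Serpina3k had the highest median of the 9 genes in both kinds of library. It was 2598 CPM per kb in libraries with H2-Ea-ps counts and 1441 CPM per kb in those without. In the libraries with H2-Ea-ps counts the other medians, on the same scale, were 551 for Serpina3n, 539 for Serpina1b, 527 for Serpina3m, 379 for Serpina1c, 275 for Serpina1a, 181 for Serpina3c, 85.1 for Serpina1d and 83.6 for Serpina1e. Neighbours in this order had overlapping ranges except Serpina3k and Serpina3n, Serpina3m and Serpina1c, and Serpina1a and Serpina3c. In the libraries without, the medians were 1231 for Serpina1d, 911 for Serpina1c, 865 for Serpina1b, 417 for Serpina3n, 390 for Serpina1a, 356 for Serpina3m, 199 for Serpina1e and 0.0608 for Serpina3c. Here all neighbours overlapped except Serpina1e and Serpina3c.

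Serpina3c was the member most sharply divided between the libraries. Libraries 1, 7, 8 and 9 had 493, 496, 307 and 285 CPM of it, against 0 to 0.798 CPM, median 0.135 CPM, in the 8 libraries without H2-Ea-ps counts. The 4 libraries with H2-Ea-ps counts held 22416 counts of Serpina3c, and the other 8 held 21, with at most 6 in a library and 0 in 3 of them. Set against total counts, this was 433 CPM against 0.193 CPM (exact Poisson 95% interval 0.119 to 0.294), a 2250-fold ratio (interval 1472 to 3636) that covers counting error only. Serpina3c transcripts were thus near the limit of detection in 8 libraries and above 284 CPM in 4, spread over all 3 temperatures.

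Serpina1d showed the opposite pattern. Its levels were 181, 126, 78.8 and 112 CPM in libraries 1, 7, 8 and 9, against 900 to 2052 CPM, median 1717 CPM, in the libraries without H2-Ea-ps counts. The ratio of the medians, without over with, was 14.5. No library of either kind came near the other. Within every temperature the order was the same: at 6 °C library 1 had 181 CPM against 1572 to 2052 CPM, at 22 °C libraries 7 and 8 had 126 and 78.8 CPM against 1862 and 1879 CPM, and at 29 °C library 9 had 112 CPM against 900 to 1267 CPM.

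**Figure D1:**
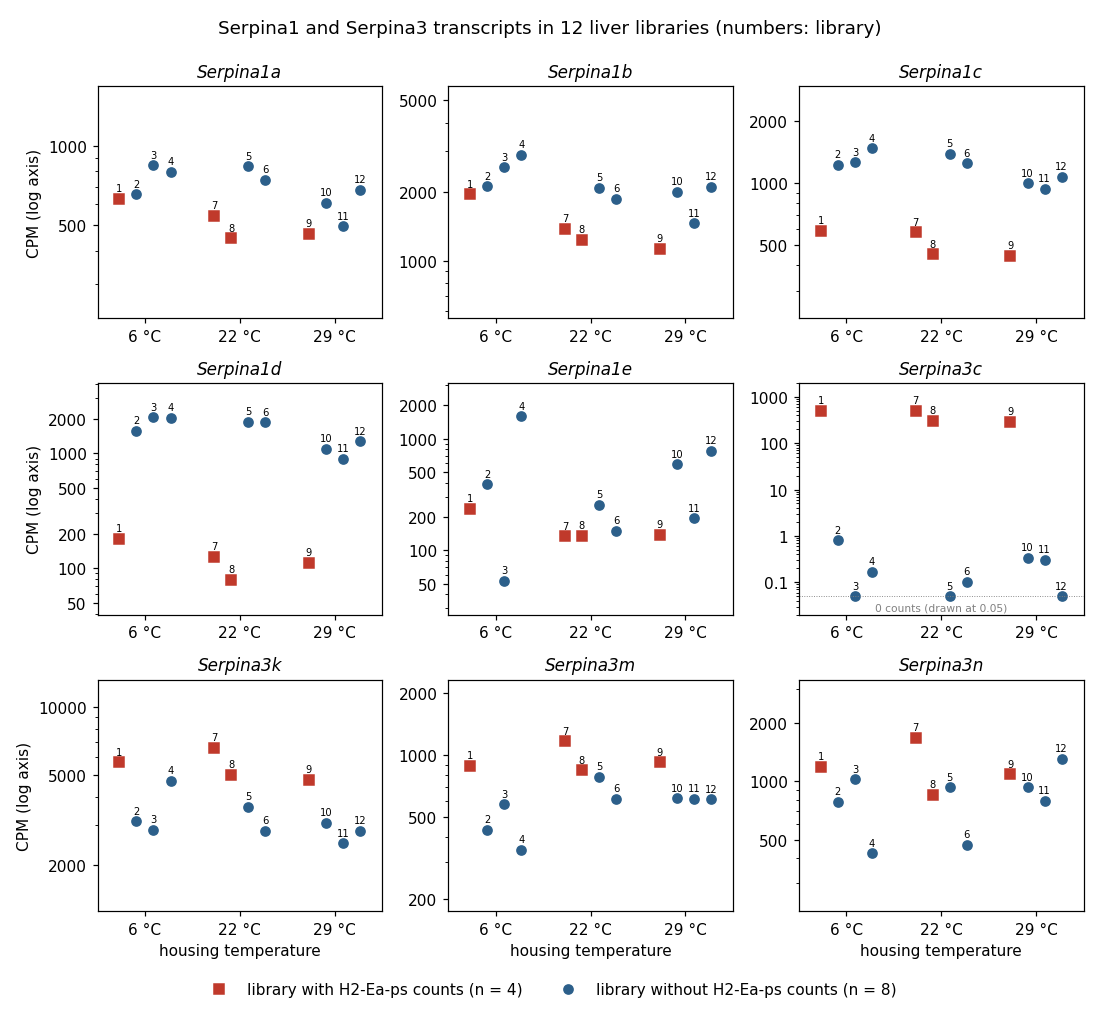
Levels of the 9 genes in CPM (log axes, a scale for each panel) by housing temperature, 1 point per library with its number; squares are the 4 libraries with H2-Ea-ps counts and circles the 8 without. Squares lie apart from circles for Serpina1c, Serpina1d, Serpina3c, Serpina3k and Serpina3m, and Serpina3c libraries with 0 counts are drawn at 0.05 CPM.

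In all, 5 of the 9 genes did not overlap between the 4 and the 8 libraries. Among all 15006 genes tested, 1408, or 9.38%, did not overlap, with 4.6% higher and 4.78% lower in the libraries with counts. The members were chosen with this division in view, so nothing is read from their share. Serpina3c had enough counts to be tested only through the libraries with H2-Ea-ps counts.

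Serpina1c was lower in the libraries with H2-Ea-ps counts, with 590, 580, 453 and 446 CPM in libraries 1, 7, 8 and 9, against 942 to 1478 CPM, median 1239 CPM, in the others. Serpina1a and Serpina1b, whose loops share the P1 codon atg, overlapped. Serpina1a had 446 to 630 CPM in libraries with H2-Ea-ps counts against 496 to 843 CPM in those without. Serpina1b, the Serpina1 copy with the highest median CPM in either kind of library, had 1125 to 1945 CPM against 1455 to 2886 CPM. Inside each temperature, however, the libraries with H2-Ea-ps counts lay below all others for both genes: for Serpina1b, 1945 CPM against 2110 to 2886 CPM at 6 °C, 1233 and 1373 CPM against 1859 and 2078 CPM at 22 °C, and 1125 CPM against 1455 to 2098 CPM at 29 °C.

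The Serpina3 copies next to each other on the chromosome were higher. Serpina3k had 5684, 6599, 5002 and 4765 CPM in libraries 1, 7, 8 and 9, against 2488 to 4719 CPM, median 2964 CPM, in the libraries without H2-Ea-ps counts. The ranges did not overlap, but library 4, without H2-Ea-ps counts, was close to library 9, at 4719 CPM against 4765 CPM in library 9. Serpina3m had 888, 1168, 845 and 922 CPM in libraries 1, 7, 8 and 9, against 346 to 783 CPM, median 611 CPM, in the others. Ratios of medians, with over without, were 1.80 for Serpina3k and 1.48 for Serpina3m, far smaller than that of Serpina3c. Serpina3n overlapped, at 852 to 1677 CPM against 426 to 1312 CPM.

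Summed by family, the Serpina1 genes had 2283 to 3579 CPM in libraries with H2-Ea-ps counts, against 3986 to 8783 CPM in those without. The Serpina3 genes had 7006 to 9941 CPM against 3890 to 5491 CPM. Neither family overlapped between the kinds of library, and the directions were opposite. The sum over all 9 genes did overlap, at 9345 to 12694 CPM against 7876 to 14274 CPM.

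The make-up of the Serpina1 output differed as well as its amount. Serpina1d gave 3.36% to 5.04% of Serpina1 CPM in libraries with H2-Ea-ps counts, against 20.6% to 31.7% in those without. Serpina1b gave 49.3% to 54.3% against 31.7% to 37.8%, and Serpina1a 17.6% to 20.3% against 9.11% to 13.0%. The shares of Serpina1c, 16.5% to 21.1% against 16.8% to 23.6%, and Serpina1e, 4.83% to 6.52% against 0.779% to 18.0%, overlapped. Shares add up to a fixed total, so a lower share of one copy goes with higher shares of others. Within the Serpina3 family, Serpina3c gave 4.03% to 5.97% against 0% to 0.0184%, and Serpina3k was the major copy in every library, at 66.4% to 71.4% against 59.6% to 85.9%.

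**Figure D2:**
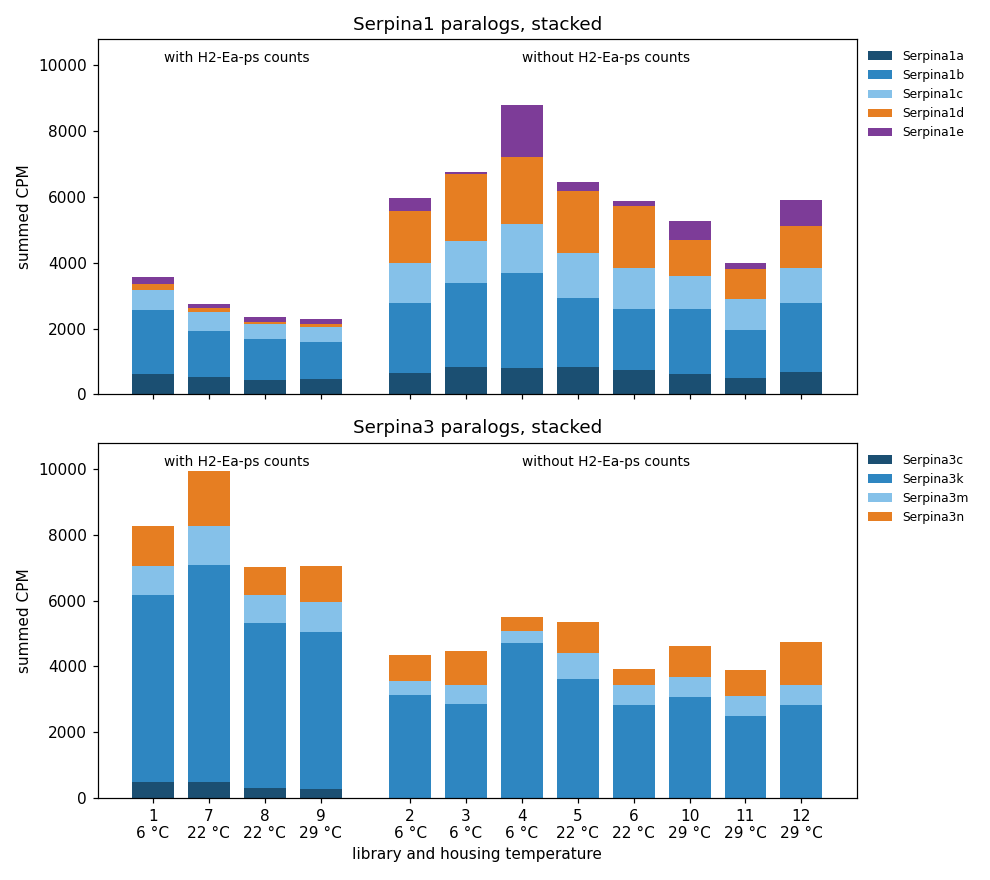
Stacked CPM of the 5 Serpina1 genes (upper panel) and the 4 Serpina3 genes (lower panel), 1 bar per library, with the 4 libraries with H2-Ea-ps counts on the left and the 8 without on the right. The Serpina1 bars on the left reach at most 3579 CPM with a thin Serpina1d layer, and the Serpina3 bars on the left are the 4 tallest.

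The promoters of the most divided copies are shown beside those of close relatives that overlapped. RefSeq windows (GRCm38.p6, 250 bases before to 50 after the start) matched 7 of the 9 genes, those of Serpina3k and Serpina3m not being in the table. Serpina1d (chr12:103773584-103773883, minus strand) and Serpina1a (chr12:103863570-103863869, minus strand) are given with the letters GTTAATATTCAC in capitals, the sequence of Serpina1a that contains GTTAAT, a half-site of the hepatocyte factor HNF1.
Serpina1d: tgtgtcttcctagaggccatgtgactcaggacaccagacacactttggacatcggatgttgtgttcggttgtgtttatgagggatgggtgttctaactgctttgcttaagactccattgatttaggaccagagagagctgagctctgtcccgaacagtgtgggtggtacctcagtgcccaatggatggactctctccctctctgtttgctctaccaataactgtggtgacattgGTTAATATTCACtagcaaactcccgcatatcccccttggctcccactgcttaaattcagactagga
Serpina1a: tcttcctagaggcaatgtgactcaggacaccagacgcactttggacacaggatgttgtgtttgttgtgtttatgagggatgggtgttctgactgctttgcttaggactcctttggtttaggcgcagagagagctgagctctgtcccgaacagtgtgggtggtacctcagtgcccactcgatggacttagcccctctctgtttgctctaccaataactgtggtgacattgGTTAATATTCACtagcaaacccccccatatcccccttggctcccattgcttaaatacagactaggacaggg
The 12 letters occurred in all 5 Serpina1 windows, at position -16 from the RefSeq start in Serpina1d and -21 in Serpina1a. They occurred in 5 of 32851 mouse windows in all (0.0152%, both strands searched). Those 5 are the Serpina1 windows themselves, and the letters were taken from one of these close copies, so nothing is read from this share. GTTAAT alone, which lies within the 12 letters, occurred in 7.1% of windows, among them Serpina3c. Over the stretches that aligned, 233 to 300 positions, the 5 Serpina1 windows were 91.4% to 97.6% identical in pairs. In the reference genome the letters were the same in Serpina1d, which was lower in libraries with H2-Ea-ps counts, and in Serpina1a, which overlapped. The sequence in the mice used was not examined, and a part of the promoter in the levels was not tested.

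Serpina3c (chr12:104153823-104154122, minus strand) and Serpina3n (chr12:104406458-104406757, plus strand) are given with capitals for bases that differ or have no partner in the other window.
Serpina3c: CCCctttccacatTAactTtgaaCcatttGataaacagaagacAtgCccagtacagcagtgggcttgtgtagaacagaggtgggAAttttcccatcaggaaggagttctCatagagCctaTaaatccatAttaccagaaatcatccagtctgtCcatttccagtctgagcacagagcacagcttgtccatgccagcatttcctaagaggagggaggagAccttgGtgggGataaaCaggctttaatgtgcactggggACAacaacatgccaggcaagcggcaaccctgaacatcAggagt
Serpina3n: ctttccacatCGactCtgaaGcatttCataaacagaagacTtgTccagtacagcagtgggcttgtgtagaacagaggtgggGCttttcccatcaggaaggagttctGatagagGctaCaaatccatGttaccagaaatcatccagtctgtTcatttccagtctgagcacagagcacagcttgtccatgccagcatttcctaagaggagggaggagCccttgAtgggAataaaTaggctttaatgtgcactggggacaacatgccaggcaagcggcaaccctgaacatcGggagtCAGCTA
Of 306 aligned positions, 275 were identical (89.9%) and 31 differed or had no partner, among them the ends where the windows are offset. Without these ends, 275 of 297 positions were identical (92.6%). The pair shared most of this window in the reference genome. Serpina3c was close to 0 in 8 libraries where Serpina3n had 426 to 1312 CPM, and a part of the promoter in this was not tested. TATAAA, the TATA box letters, matched the Serpina3c window and not that of Serpina3n, and 13.6% of all windows hold it. TTGCNNAA, letters bound by C/EBP factors, matched 4 of the Serpina1 windows (10.8% of all windows), and TTCNNNGAA, a STAT factor core, matched none of the 7 (8.3% of all windows), which says only that these letters are not in these windows.

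Genes whose libraries did not overlap were then counted along the cluster and its flanks. The cluster runs from 103614786 to 104414329 on chromosome 12 (GRCm38). Of the 10 tested Serpina genes in it that are not members, 6 were higher and 0 lower without overlap in the libraries with H2-Ea-ps counts. Of all genes tested, 4.6% were higher and 4.78% lower, or 9.38% in either direction. Among tested genes within 1 Mb, 0 of 16 below the cluster and 0 of 6 above it did not overlap. The cluster was looked at because of its members, so these counts are a description. The 6 that were higher, named after their values were seen, were Serpina11, Serpina3f, Serpina3i and the pseudogenes Serpina3h, Serpina3e-ps and Serpina4-ps1. Serpina3e-ps had a median of 2.69 CPM against 0.0536 CPM. Serpina4-ps1 had 17.8 to 44.7 CPM against 0.238 to 3.87 CPM. Serpina3e-ps and Serpina4-ps1 had enough counts to be tested only through the libraries with H2-Ea-ps counts, so nothing is read from their direction. Serpina11 had 121 to 150 CPM against 15.8 to 42.3 CPM. The lower members, Serpina1d and Serpina1c, lie on the side of lower coordinates, together with the antisense transcript B430119L08Rik, a non-Serpina gene that overlaps Serpina1c and was also lower. All higher genes lie beyond Serpina1e. Reads of Serpina1c and of B430119L08Rik cannot be told apart if strand was not used in counting.

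**Figure D3:**
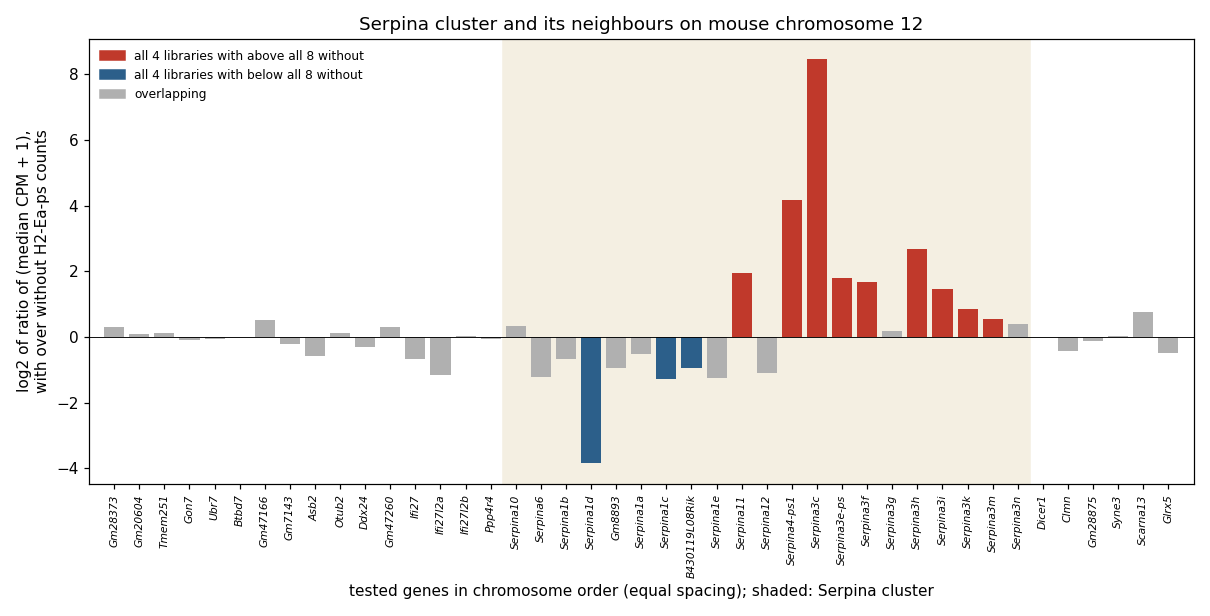
Log2 ratio of median CPM + 1, libraries with over libraries without H2-Ea-ps counts, for tested genes on chromosome 12 in order, equally spaced, with the Serpina cluster shaded; red and blue bars are genes whose libraries did not overlap, higher and lower. Coloured bars lie inside the shaded cluster, blue ones to the left of Serpina1e and red ones to its right.

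Other quantities were set against the same division, and their part in these differences was not tested. Of all genes tested, 4.6% were higher and 4.78% lower without overlap, and nothing is read from the small counts below. In bulk RNA, fewer cells of a type and less RNA per cell cannot be told apart. The summed level of hepatocyte markers was 114296 to 137326 CPM in libraries with H2-Ea-ps counts against 137523 to 233080 CPM. These ranges almost met, and 0 of the 11 genes was separate by itself. Neutrophil markers summed to 832 to 2577 CPM against 30.9 to 811 CPM, with 2 of 10 genes higher without overlap and none at 0 throughout. Kupffer cell markers overlapped in sum, at 412 to 638 CPM against 513 to 1352 CPM, with 2 of 10 genes lower. The 11 hepatocyte transcription factors summed to 1496 to 1753 CPM against 1812 to 2259 CPM, and Hnf4a, which drives many liver-specific genes, was the only one separate by itself, at 680 to 895 CPM against 957 to 1314 CPM.

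Proteases that these inhibitors are known to act on, together with plasma kallikrein, were followed as well. The 5 genes Elane, Prtn3, Ctsg, Gzmb and Klkb1 summed to 296 to 550 CPM in libraries with H2-Ea-ps counts against 154 to 258 CPM in those without. All 5 overlapped when taken alone, Elane, neutrophil elastase, at 37.2 to 148 CPM against 0.167 to 54.0 CPM. Medians were higher in libraries with H2-Ea-ps counts for Elane, Prtn3 and Ctsg. They were lower there for Klkb1 (105 against 123 CPM) and Gzmb (0.176 against 0.842 CPM). Among secreted serpins of other clades, Serpinc1, which encodes antithrombin, was lower at 1047 to 1376 CPM against 1764 to 2476 CPM. The other 7 overlapped, and 4.78% of all genes tested were lower without overlap.

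Serpina3c aside, which was near 0, Serpina1e varied most among the 8 libraries without H2-Ea-ps counts. It had 389, 52.7 and 1580 CPM in libraries 2, 3 and 4 (6 °C), 256 and 149 CPM in libraries 5 and 6 (22 °C), and 589, 193 and 777 CPM in libraries 10, 11 and 12 (29 °C). The highest of these was 30.0 times the lowest, with a coefficient of variation of 100%. For the other 7 genes that ratio was at most 3.08. The libraries with H2-Ea-ps counts were closer together, at 233, 133, 134 and 136 CPM in libraries 1, 7, 8 and 9. Its highest and its lowest level were both found at 6 °C.

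The other Serpina1 genes moved with each other and not with Serpina1e. In the 8 libraries without H2-Ea-ps counts, log2(CPM + 1) of Serpina1d correlated with that of Serpina1a (Pearson r 0.944) and Serpina1c (0.944). Serpina1e correlated with the other Serpina1 genes at -0.16 to 0.27. These are descriptions over 8 libraries, and shared reads among near-identical copies can raise such values. Prdx4 (r 0.877) and Eaf1 (0.871) were among the 3 genes most like Serpina1e over all 12 libraries, of non-members with a mean of at least 10 CPM.

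Over all 12 libraries the genes most like Serpina3c were C4a (r 0.993), Gm15459 (0.990) and Cyp2c39 (0.988), and those most like Serpina1d were Camk1d (0.985), Tdrd7 (0.978) and Smim14 (0.976). Both sets of values span the division by H2-Ea-ps and largely restate it. The same limit holds for Serpina1c, Serpina3k and Serpina3m, which also did not overlap. The genes nearest to Serpina1c were Smim14 (0.982), Ahcy (0.978) and Kmo (0.971). For Serpina3k they were Hars2 (0.927), F11 (0.920) and Abca3 (0.886), for Serpina3m Mylk (0.963), Pcp4l1 (0.960) and Phf20l1 (0.949). Serpina1a was nearest to Cox7b (0.968), Idh3b (0.946) and Oxnad1 (0.943), and Serpina1b to Ndufb9 (0.979), Phyh (0.962) and Urad (0.958). In the 8 libraries without H2-Ea-ps counts other genes were nearest to Serpina1c and Serpina3m, and Hars2 was again nearest to Serpina3k (0.910).

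Serpina3n, an acute phase gene, had levels of 1185, 783, 1024 and 426 CPM at 6 °C, 931, 471, 1677 and 852 CPM at 22 °C, and 1089, 932, 791 and 1312 CPM at 29 °C, in the order of the libraries. The genes most like it over the 12 libraries were Il1r1, the receptor of interleukin 1 (r 0.946), Wdr82 (0.904) and Itih3 (0.890), which encodes a heavy chain of the inter-alpha-inhibitors and is an acute phase gene. Libraries 4 and 6 were the lowest for Serpina3n, Il1r1 and Itih3. Without libraries 4 and 6, r was 0.867 for Il1r1 and 0.712 for Itih3, with Spearman's rho of 0.758 and 0.539. Without the 2 libraries farthest from the median of each gene, 4 and 7 for Il1r1 and 4 and 12 for Itih3, r was 0.880 and 0.832.

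Saa1, the serum amyloid gene of the acute phase, was also lowest in libraries 4 and 6, at 10.2 and 6.72 CPM, against 18.1 to 584 CPM elsewhere. Its r with Serpina3n was 0.703 over 12 libraries and 0.317 without libraries 4 and 6, so that relation rested on those libraries. Itih4, another inter-alpha-inhibitor heavy chain gene, had 0.765 over 12 libraries and 0.411 without libraries 4 and 6. In the 8 libraries without H2-Ea-ps counts Itih4 was the gene most like Serpina3n (r 0.956, rho 0.786), and these 8 include libraries 4 and 6.

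**Figure D4:**
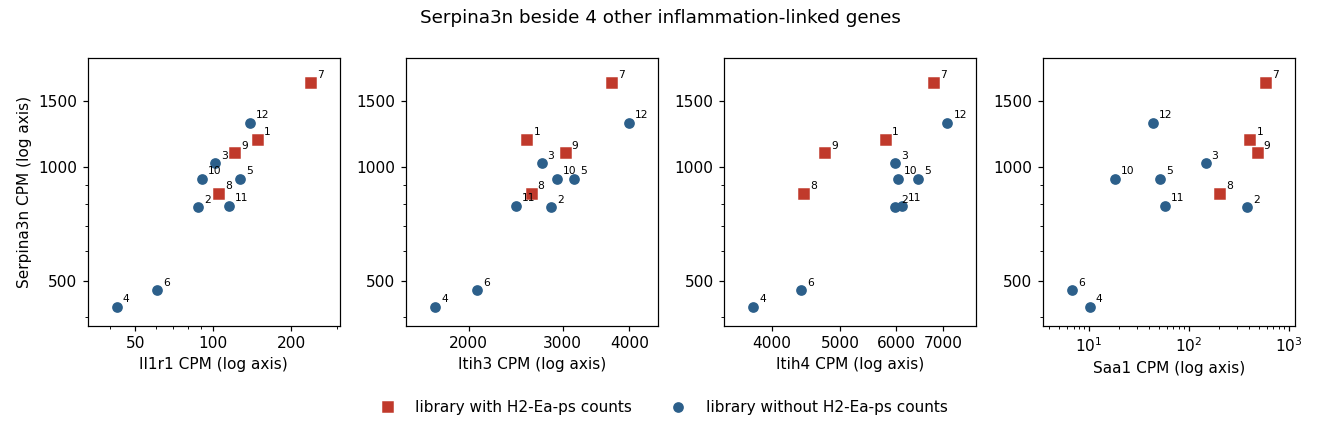
Serpina3n (vertical axes) against Il1r1, Itih3, Itih4 and Saa1 (horizontal axes), in CPM on log axes, 1 point per numbered library; squares have H2-Ea-ps counts and circles do not. Libraries 4 and 6 lie lowest in every panel, and without them r was 0.867, 0.712, 0.411 and 0.317 in the order of the panels.

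The study compared housing temperatures, and none of the 9 genes passed in any of the 3 comparisons. The test was edgeR's quasi-likelihood F-test (two-sided), its p-values were adjusted over the 15006 genes by Benjamini and Hochberg's method, and the threshold was an adjusted p under 0.05. The calls at 29 °C against 6 °C were 0 of 9 members, against 379 genes in all (2.53%, with 1.13% higher and 1.39% lower). At 29 °C against 22 °C they were 0 of 9, against 0 genes (0%). At 6 °C against 22 °C they were 0 of 9, against 5 genes (0.0333%). At an unadjusted p under 0.05 there were 0, 0 and 1 members, against 2913, 2241 and 1787 genes, in the same order, and DESeq2 called 0 members in each. Every member's libraries overlapped between every pair of temperatures, while 13.3%, 7.68% and 6.33% of all genes did not overlap in these comparisons, in the same order.

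Serpina1d averaged 842 ± 509 CPM at 29 °C and 1461 ± 882 CPM at 6 °C (SD over libraries, n = 4 each). Its difference was -0.79 on the log2 scale (SE 1.10, adjusted p = 0.747, edgeR), smaller than its SE. Libraries 9 (112 CPM, at 29 °C) and 1 (181 CPM, at 6 °C), which have H2-Ea-ps counts, were the lowest of their temperatures. Serpina1b had a mean of 1668 ± 459 CPM at 29 °C, against 2373 ± 427 CPM at 6 °C, a difference of -0.51 (SE 0.24, adjusted p = 0.270, edgeR). Serpina1a differed by -0.38 (SE 0.22) and Serpina1c by -0.40 (SE 0.39) on the same scale. All 5 Serpina1 differences were below 0, but these copies may share reads and none was called. That of Serpina1e ran from -0.88 to 0.92 with a library left out. The median over the 9 members, a description since they were chosen from these values, was -0.40 against 0.00 for all genes tested.

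The Serpina3 genes split in sign. Serpina3n had a mean of 1031 ± 223 CPM at 29 °C, against 855 ± 330 CPM at 6 °C, a log2 difference of 0.27 (SE 0.36, adjusted p = 0.734, edgeR). Serpina3m differed by 0.30 (SE 0.29) and Serpina3k by -0.32 (SE 0.31). Serpina3c had a mean of 71.3 ± 142 CPM at 29 °C, against 123 ± 246 CPM at 6 °C, each mean resting on 1 library with H2-Ea-ps counts, and its fitted difference (-0.80, SE 2.82) turned to 8.06 without library 1.

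At 29 °C against 22 °C the largest difference outside Serpina3c was that of Serpina1e, which had a mean of 424 ± 310 CPM at 29 °C, against 168 ± 59 CPM at 22 °C (log2 difference 1.34, SE 0.88, adjusted p = 0.501, edgeR). The 7 other members lay between -0.46 (Serpina3k) and 0.07 (Serpina3n), and the median over 9 was -0.19, against -0.00 for all genes. At 6 °C against 22 °C the largest was again that of Serpina1e, with 564 ± 691 CPM at 6 °C, against 168 ± 59 CPM at 22 °C (1.75, SE 0.89, adjusted p = 0.467, edgeR). Serpina1b was the member under 0.05 before adjustment, with 2373 ± 427 CPM at 6 °C against 1636 ± 398 CPM at 22 °C (0.54, SE 0.24, adjusted p = 0.412, edgeR). Serpina3m had 561 ± 238 CPM at 6 °C, against 852 ± 232 CPM at 22 °C (-0.60, SE 0.29, adjusted p = 0.429, edgeR), and the median over the 9 members was 0.19, against -0.02 for all genes. The family sums were 6270 ± 2152, 4350 ± 2100 and 4362 ± 1598 CPM for Serpina1 at 6, 22 and 29 °C, and 5636 ± 1818, 6551 ± 2588 and 5079 ± 1374 CPM for Serpina3, with SDs that exceed most differences between means.

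**Figure D5:**
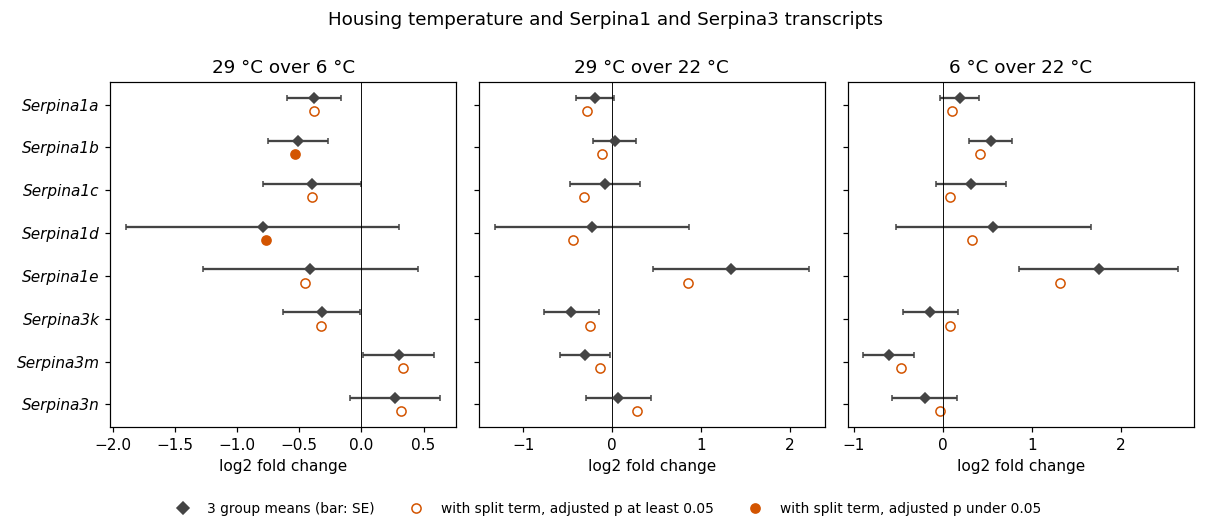
Log2 fold changes between housing temperatures for 8 of the 9 genes (Serpina3c left out), from the fit of 3 group means (diamonds, bars are ± 1 SE) and from the fit with the division by H2-Ea-ps as a term (circles, filled where the adjusted p was under 0.05). Filled circles occur for Serpina1b and Serpina1d at 29 °C over 6 °C only.

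Because the libraries with H2-Ea-ps counts are spread 1, 2 and 1 over the temperatures, the comparisons were repeated with this division as a term in the fit. Then Serpina1d (-0.77, adjusted p = 0.0241, edgeR) and Serpina1b (-0.53, adjusted p = 0.0362, edgeR) were called lower at 29 °C than at 6 °C. These were 2 of 9 members, against 12.6% of all genes called in either direction and 6.23% called lower. The term came from the data, and the members were chosen by it and by temperature. The calls in this paragraph are therefore a description. At 29 °C against 22 °C and at 6 °C against 22 °C this fit called 0 of 9 members, against 3.44% and 0.367% of genes. With this term Serpina1d was called in 8 of 12 fits that left out a library (lost without library 1, 3, 10 or 11, adjusted p up to 0.0871). Serpina1b was called in 6 of 12 (lost without library 1, 3, 4, 9, 10 or 11, adjusted p up to 0.111). In the 8 libraries without H2-Ea-ps counts alone, Serpina1d had 1090, 900 and 1267 CPM at 29 °C (libraries 10, 11 and 12) against 1572, 2052 and 2038 CPM at 6 °C, without overlap (-0.79, adjusted p = 0.0157, edgeR). It differed by a like amount from libraries 5 and 6 at 22 °C, with 1879 and 1862 CPM (-0.79, adjusted p = 0.0160, edgeR). Among all genes, 9.91% were called at 29 °C against 6 °C (4.98% lower) and 17.1% at 29 °C against 22 °C (7.74% lower) in these 8 libraries. Leaving out library 11, which holds the intestinal transcripts and the 900 CPM, gave -0.68 in both comparisons (adjusted p = 0.0450 against 6 °C and 0.0359 against 22 °C, edgeR), beside 3.2% and 7.32% of genes called lower. At 6 °C against 22 °C 0 of 8 tested members were called, against 6.69% of genes, and Serpina3c was not tested.

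Genes of the wider serpin system were counted from lists. Of all genes tested, 1.39% were called lower and 1.13% higher at 29 °C against 6 °C, and nothing is read from the small counts below. Of 10 tested genes among the 17 other clade A serpins, 1 was called lower at 29 °C than at 6 °C and 0 higher. This was Serpina6, which encodes corticosteroid-binding globulin, the plasma carrier of glucocorticoids, and which lies in the same cluster. It had 82.5, 120, 149 and 151 CPM at 29 °C, against 566, 281, 445 and 479 CPM at 6 °C, so the groups did not overlap. Its log2 fold change was -1.82 (SE 0.40, adjusted p = 0.0366, edgeR), and this call was lost without library 1, 3, 4, 9, 10, 11 or 12 (adjusted p up to 0.116) and without the low-count filter (0.0904). With the division by H2-Ea-ps as a term it was -1.92 (adjusted p = 0.00742, edgeR).

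Of the 5 proteases, Klkb1, plasma prekallikrein, fell to 90.7 ± 14.2 CPM at 29 °C, against 145 ± 18.1 CPM at 6 °C (-0.68, SE 0.15, adjusted p = 0.0355, edgeR). Of 13 genes of cytokine and glucocorticoid signalling, Lifr, the receptor of leukaemia inhibitory factor, fell to 271 ± 22.7 CPM at 29 °C, against 533 ± 95.7 CPM at 6 °C (-0.97, SE 0.22, adjusted p = 0.0388, edgeR). Each was the only gene of its list called, beside 1.39% of all genes tested called lower. The Klkb1 call was lost in 7 and the Lifr call in 8 of 12 fits that left out a library, with adjusted p up to 0.112 and 0.114.

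None of the 8 genes of growth hormone signalling, 11 hepatocyte transcription factors, 17 other acute phase proteins and 16 genes of serpin folding and export were called at 29 °C against 6 °C by edgeR. Their median log2 differences were -0.34, -0.09, -0.01 and -0.08. No gene of any of these lists was called at 29 °C against 22 °C or at 6 °C against 22 °C.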

How the data were processed

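Per the labels' protocols, mouse liver total RNA was depleted of ribosomal RNA and sequenced. The authors deposited raw counts per gene for 55421 genes in 12 libraries. STAR 2.6.1a, DESeq2 1.44.0, bcl2fastq and the build GRCm38 appear in the submitters' processing notes, without roles. How reads were counted, and whether strand was used, is not given in the sources used here. Columns were tied to samples by the library names that the descriptions give.

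The deposited counts entered edgeR 4.0.16 (R 4.3.3) unchanged, with low genes removed by filterByExpr by group, scaling by TMM, and a robust quasi-likelihood fit of 3 group means without covariates (9 residual degrees of freedom). Total counts lay between 7615585 and 19001126. The code was tested on simulated counts. Chi-square per degree of freedom between the 18 replicate pairs was 12.7 to 136, above sampling noise, so each library counted as 1 sample. CPM used TMM-scaled totals. Exact Poisson intervals and the floor of 3 counts cover counting error only.

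The members, gene lists and alternatives were chosen with earlier results of these data known. All 9 members are named, then from each list up to 3 called genes with the lowest p per comparison, then for each member the 3 genes with the highest Pearson r of log2(CPM + 1), a pseudocount of 1, among genes with a mean of at least 10 CPM. Some genes named by this rule are not reported here. A library has H2-Ea-ps counts where it reaches 1 CPM. Positions and transcripts come from GENCODE (GRCm38), and promoters from RefSeq (GRCm38.p6). Alternatives were DESeq2 size factors, plain totals, no filter, DESeq2 1.42.0, only the compared temperatures, the division by H2-Ea-ps as a term, the 8 libraries without such counts, and each library left out. Fits with that term and a library left out, and of the 8 libraries without library 11, were chosen after seeing the data.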

Additional observations from a re-analysis of the deposited data

Results flagged for a closer look

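The highest and the lowest library of each group of 4 were checked for a gap to the nearest other library that took more of the group's range than Dixon's critical value allows, over 27 groups (9 genes at 3 temperatures). Chance flags about 1 in 20 independent groups, and 4 were flagged here. The members were chosen by the division by H2-Ea-ps, which holds 1 library at 6 °C and 1 at 29 °C. Nothing is therefore read from the number of flags. Serpina3c in library 1 stood at 493 CPM among the 6 °C libraries (gap over range 0.998), and in library 9 at 285 CPM among the 29 °C libraries (0.999). Serpina3m in library 9 stood at 922 CPM among the 29 °C libraries (0.984). Libraries 1 and 9 are the ones with H2-Ea-ps counts at their temperatures. Serpina1e in library 5, which has no H2-Ea-ps counts, stood at 256 CPM among the 22 °C libraries, above 133 to 149 CPM in the others (0.871).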

How the results depend on the processing

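No paired analysis was possible because the replicate numbers run from 1 to 12 over the groups and are shared by none. The count of genes called at 29 °C against 6 °C, 29 °C against 22 °C and 6 °C against 22 °C was 379, 0 and 5 in the fit of 3 group means, 1884, 516 and 55 with the division by H2-Ea-ps as a term, 1504, 2594 and 1015 in the 8 libraries without H2-Ea-ps counts, and 1161, 313 and 160 with DESeq2. Plain totals gave 1 and no low-count filter 15 at 29 °C against 22 °C, and the compared temperatures alone gave 3 at 6 °C against 22 °C. Leaving out a library gave 41 to 439, 0 to 78 and 3 to 7, with 41 without library 10, 47 without 4, 67 without 3, 71 without 11, 149 without 12 and 211 without 9 at 29 °C against 6 °C, and 78 without library 9 and 3 without 7 at 29 °C against 22 °C. The cause was not tested. Members called stayed at 0 except for 2 with the term at 29 °C against 6 °C, and 1 in the 8 libraries at 29 °C against 6 °C and at 29 °C against 22 °C. No member was called when a library was left out of the fit of 3 group means. Log2 differences that changed sign were, at 29 °C against 22 °C, Serpina1b (0.03, with -0.11 under the term and -0.093 in the 8 libraries), and, at 6 °C against 22 °C, Serpina3c (-0.70, with 0.36 under the term), Serpina3k (-0.14, with 0.083 and 0.13), Serpina1a (0.19, with -0.057 in the 8 libraries), Serpina1c (0.31, with -0.0048) and Serpina3n (-0.20, with 0.077). With a library left out, the range crossed 0 at 29 °C against 6 °C for Serpina1e (-0.88 to 0.92) and Serpina3c (-9.03 to 8.06), at 29 °C against 22 °C for Serpina1b (-0.10 to 0.18), Serpina1c (-0.31 to 0.18), Serpina1d (-0.61 to 0.29) and Serpina3n (-0.16 to 0.46), and at 6 °C against 22 °C for Serpina3c (-9.56 to 0.27), Serpina3k (-0.34 to 0.10) and Serpina3n (-0.43 to 0.19). None of these reversed values was called. Depth limits Serpina3c in the 8 libraries without H2-Ea-ps counts, where it had at most 6 counts.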
